A study of Mus musculus with 6 samples.

Results

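Collagen transcripts were followed in RNA-seq libraries of sorted colonic macrophages. The collagen genes were the 44 of 25124 gene rows whose symbol is Col, a type number, the letter a and a chain number. The family was taken up with earlier results of these data known, and the symbol alone decided membership. The TG group held 3 libraries from C57BL/6 mice with an E4BP4 transgene described as macrophage-specific, and the WT group held 3 libraries from C57BL/6 wild type mice. E4BP4, the product of Nfil3, is a transcription factor of the basic leucine zipper family. Mice of both groups were 8 weeks old and all had colitis induced: they drank dextran sulfate sodium (DSS), which damages the gut lining, at 2.0% for 7 days, drank plain water for 7 more and were killed on day 14. Lamina propria cells were dissociated, macrophages were separated on a cell sorter, and polyadenylated RNA was taken from 20 ng of total RNA. The labels name neither the promoter that drives the transgene nor the surface markers of the sort. Nor do they state that each library is from its own mouse. The spread behind every p-value is that between these libraries, and it may be technical. Sample titles gave the groups, and 2 of the 3 TG samples have another final digit after E4BP in their genotype field.

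Collagens are secreted proteins whose chains wind into a long helix. The fibrillar types 1, 3 and 5 build the banded fibrils of the interstitial matrix and are classically made by fibroblasts. Type 4 forms the sheet-like network of basement membranes below epithelium and around vessels, where types 15 and 18 are also found, and type 6 forms beaded filaments that link fibrils and basement membranes to cells. Macrophages are better known for taking up and degrading collagen than for laying it down. TG is compared with WT to see which transcripts change with macrophage E4BP4 overexpression, and here whether the collagen classes moved alike.

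Levels are the authors' TPM, a unit of transcript abundance scaled for transcript length and library depth. The libraries held 13.97 to 15.06 M (1e6) reads in genes, 79.5% to 81.3% of the totals stated in the file headers, and 3 reads of a transcript of 5000 bases corresponded to 0.0452 to 0.0488 TPM. Nfil3 was at 133, 134 and 141 TPM in TG libraries and 117, 120 and 119 TPM in WT libraries, 1.14-fold higher (limma log2 fold change 0.19 ± 0.029 SE, adjusted p = 0.00261). The authors' deposited table, which counts over the gene span, gave Nfil3 a smaller log2 fold change of 0.093 (adjusted p = 0.0169 in that table). All 12 listed macrophage markers were detected, and their summed level was 16705 to 16786 TPM in TG and 17408 to 17578 TPM in WT libraries. Of 12633 genes that averaged 1 TPM or more in either group, 1100 (8.71%) were higher and 1666 (13.2%) lower in TG at a limma adjusted p below 0.05. Upper-quartile scaling gave 1425 higher and 1315 lower. Genes called higher numbered 704 when TG replicate 2 was left out and 721 when TG replicate 3 was. These shares of all genes are the background for the counts of collagens and of every gene list. At an unadjusted p below 0.05, the shares were 14.7% higher and 20.5% lower, and limma-voom, a fit to recovered whole reads, gave 13.0% higher and 16.4% lower at an adjusted p below 0.05.

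The promoter regions of the leading members are shown because Col4a1 and Col4a2, Col18a1 and Col3a1 carry the results that follow. Col4a1 and Col4a2, the chains of the common type 4 collagen, are transcribed away from each other on mouse chromosome 8. Their annotated start sites lie 21 bases apart, and the first exons share 22 bases on opposite strands. The shared stretch (mm10, chr8:11312805-11312826, plus strand) reads as follows.
Col4a1 and Col4a2 overlap: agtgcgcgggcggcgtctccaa
The 250 bases before the start of Col18a1 (RefSeq, GRCm38.p6, chr10:77166531-77166780, minus strand) are given with every CCAAT box (CCAAT or, on the other strand, ATTGG) and GC box (GGGCGG or CCGCCC) in capitals.
Col18a1: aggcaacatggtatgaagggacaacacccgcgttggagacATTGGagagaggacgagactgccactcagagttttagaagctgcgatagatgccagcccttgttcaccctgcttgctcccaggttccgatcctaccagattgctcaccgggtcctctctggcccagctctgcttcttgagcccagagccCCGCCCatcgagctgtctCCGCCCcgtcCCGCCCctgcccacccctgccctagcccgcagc
The 250 bases before the start of Col3a1 (chr1:45311288-45311537, plus strand) are given with the letters TATAAA in capitals.
Col3a1: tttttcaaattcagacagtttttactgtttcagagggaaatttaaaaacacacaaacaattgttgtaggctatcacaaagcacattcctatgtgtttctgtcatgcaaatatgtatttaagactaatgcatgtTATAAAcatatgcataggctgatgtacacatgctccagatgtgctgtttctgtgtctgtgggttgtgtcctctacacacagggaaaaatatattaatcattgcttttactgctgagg
The Col18a1 sequence holds 3 GC boxes, beginning 61, 43 and 33 bases before the start, and 1 CCAAT box. The Col3a1 sequence holds neither, and its TATAAA begins 117 bases before the start.

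Every class of collagen had a lower mean sum in TG than in WT libraries, and among the classes with tested genes the basement membrane collagens were the lowest relative to WT. All 44 genes together summed to 151, 148 and 148 TPM in TG libraries and 232, 235 and 236 TPM in WT libraries, 1.57-fold lower. They took 0.0746%, 0.0733% and 0.0732% of the reads in genes in TG libraries and 0.116% to 0.117% in WT libraries, so collagen was a small part of the RNA in both groups. In bulk libraries, fewer cells of a type and less RNA per cell cannot be told apart. The basement membrane genes summed to 22.2 ± 0.341 TPM in TG and 55.1 ± 0.392 TPM in WT libraries, 2.48-fold lower (SD, n = 3 each). The fibrillar types 1, 3 and 5 summed to 83.0 ± 1.97 TPM in TG and 119 ± 1.33 TPM in WT libraries, 1.44-fold lower, and type 6 to 21.5 ± 0.527 TPM in TG and 32.7 ± 1.72 TPM in WT libraries, 1.52-fold lower. In each of these 3 classes the TG libraries lay below all WT libraries. The transmembrane collagens were near the limit of detection, with sums of 0.216 ± 0.0576 TPM in TG and 0.886 ± 0.263 TPM in WT libraries, and the network-forming and other types overlapped, at 0.511 to 0.995 TPM in TG and 0.80 to 1.36 TPM in WT libraries.

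Of the 44 collagen genes, 19 passed the filter of 1 TPM and were tested. Of these, 12 fell (limma adjusted p below 0.05 over all tested genes), 0 rose and 7 were not called, where 13.2% of all tested genes fell and 8.71% rose. All 19 fold changes were below 0: at an unadjusted p below 0.05, limma gave 17 lower and 0 higher, where 20.5% of all tested genes were lower. Of the 19, 15 passed the filter in both groups and include all 12 that fell. The other 4, Col5a3, Col12a1, Col20a1 and Col27a1, passed only through WT and so had to be lower in TG. All 3 TG values lay below all 3 WT values for 17 of the 19, against 22.3% of all tested genes. The mean was at least 2-fold lower for 3 of the 19, against 2.34% of all tested genes. The median log2 fold change was -0.51 over the 19 and -0.01 over all tested genes.

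**Figure D1:**
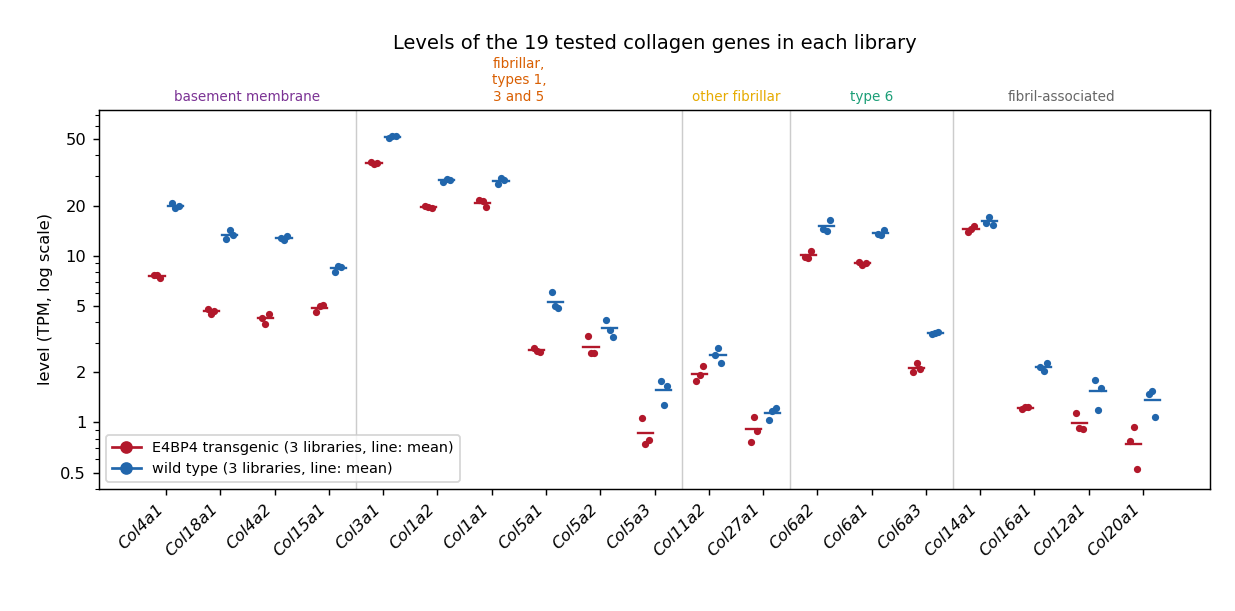
Level of each of the 19 tested collagen genes (TPM, log axis) in the 3 TG libraries (red) and the 3 WT libraries (blue), grouped by class, with a line at each group mean. Red points lie below blue points for 17 of the 19 genes, and the gap is widest for Col4a2, Col18a1 and Col4a1. Col5a3, Col12a1 and Col20a1, among the 17, passed the filter through WT alone and so had to be lower in TG.

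Among the tested collagens, the 3 that fell the most were basement membrane genes. Col4a1, the alpha 1 chain of type 4 collagen (NM_009931, mm10 chromosome 8, 11198423 to 11312826, minus strand), was at 7.72, 7.72 and 7.33 TPM in TG libraries and 20.8, 19.3 and 19.8 TPM in WT libraries. Its partner chain Col4a2 (NM_009932, chromosome 8, 11312805 to 11449287, plus strand) was at 4.26, 3.89 and 4.50 TPM in TG libraries and 12.8, 12.5 and 13.2 TPM in WT libraries. Both groups were tight and far apart for both chains. Col4a1 was 2.63-fold lower (log2 fold change -1.29 ± 0.057 SE, limma adjusted p = 5.8e-06) and Col4a2 3.04-fold lower (-1.41 ± 0.073, limma adjusted p = 1.4e-05). Col4a1 exceeded Col4a2 in every library, by a ratio of 1.81, 1.99 and 1.63 in TG libraries and 1.63, 1.54 and 1.50 in WT libraries, and these ratios overlap between the groups. Each value rested on 306 to 665 reads in TG and 1004 to 1680 reads in WT libraries.

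Col18a1, the parent of the fragment endostatin (NM_009929, chromosome 10, 77052179 to 77166530, minus strand), was at 4.78, 4.47 and 4.68 TPM in TG libraries and 12.6, 14.4 and 13.3 TPM in WT libraries. It was 2.88-fold lower (log2 fold change -1.35 ± 0.073 SE, limma adjusted p = 1.6e-05), a size like that of the type 4 chains. Col15a1, its closest relative and likewise a proteoglycan of basement membrane zones (NM_009928, chromosome 4, 47208012 to 47313165, plus strand), was at 4.60, 5.01 and 5.05 TPM in TG libraries and 8.04, 8.64 and 8.62 TPM in WT libraries. Its fall was smaller, 1.73-fold (-0.68 ± 0.073, limma adjusted p = 0.000524), again with no overlap. The ratio of Col18a1 to Col15a1 was 1.04, 0.893 and 0.927 in TG libraries and 1.56, 1.66 and 1.54 in WT libraries, so the pair did not keep its proportion. An exact permutation test of 3 against 3 libraries cannot give a p below 0.1, so no p is given for such ratios.

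The fibrillar collagens of types 1 and 3 were the most abundant members and fell by smaller factors. Col3a1, the single chain of type 3 collagen (NM_009930, chromosome 1, 45311538 to 45349706, plus strand), was at 36.5, 35.7 and 36.2 TPM in TG libraries and 51.0, 52.1 and 52.6 TPM in WT libraries. It was 1.44-fold lower (log2 fold change -0.51 ± 0.034 SE, limma adjusted p = 4.5e-05) and was the highest collagen in every library. Col1a2, the alpha 2 chain of type 1 collagen (NM_007743, chromosome 6, 4505618 to 4541543, plus strand), was at 19.9, 19.6 and 19.4 TPM in TG libraries and 27.9, 29.1 and 28.5 TPM in WT libraries. Col1a1, the alpha 1 chain (NM_007742, chromosome 11, 94936224 to 94953042, plus strand), was at 21.5, 21.3 and 19.6 TPM in TG libraries and 26.8, 29.2 and 28.4 TPM in WT libraries. Neither type 1 chain overlapped between the groups. Col1a2 was 1.45-fold lower (-0.52 ± 0.042, limma adjusted p = 0.000122) and Col1a1 1.35-fold lower (-0.42 ± 0.055, limma adjusted p = 0.0015). The levels of Col1a1 and Col1a2 stayed close, at a ratio of 1.08, 1.09 and 1.01 in TG libraries and 0.961, 1.00 and 0.996 in WT libraries. Those ratios did not overlap between the groups.

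Type 5 collagen, which nucleates and limits the width of type 1 fibrils, was uneven among its chains. Col5a1 (NM_015734, chromosome 2, 27886425 to 28039510, plus strand) was at 2.80, 2.69 and 2.66 TPM in TG libraries and 6.08, 4.99 and 4.89 TPM in WT libraries. It was 1.96-fold lower (log2 fold change -0.76 ± 0.101 SE, limma adjusted p = 0.00151), with the highest WT value in replicate 1. Col5a2 was at 3.29, 2.63 and 2.61 TPM in TG libraries and 4.14, 3.59 and 3.28 TPM in WT libraries, and TG replicate 1 lay level with the lowest WT value (limma adjusted p = 0.129). Col5a3 was at 1.06, 0.740 and 0.785 TPM in TG libraries and 1.76, 1.28 and 1.65 TPM in WT libraries (limma adjusted p = 0.0569). The groups did not overlap for Col5a3, but it missed the threshold. Col5a3 passed the filter through WT alone and so had to be lower in TG. The ratio of Col5a1 to Col5a2 was 0.851, 1.02 and 1.02 in TG libraries and 1.47, 1.39 and 1.49 in WT libraries.

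The fibrillar genes outside types 1, 3 and 5 were low. Col11a2, a chain of the minor fibrillar type 11, was at 1.77, 1.92 and 2.18 TPM in TG libraries and 2.55, 2.80 and 2.26 TPM in WT libraries, and was not called (limma adjusted p = 0.157). Col27a1, a long fibrillar chain known from cartilage, was at 0.764, 1.09 and 0.885 TPM in TG libraries and 1.03, 1.17 and 1.22 TPM in WT libraries, with overlapping groups (limma adjusted p = 0.441).

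The 3 main chains of type 6 collagen fell together. Col6a1 (NM_009933, chromosome 10, 76708792 to 76726044, minus strand) was at 9.16, 8.80 and 9.08 TPM in TG libraries and 13.6, 13.3 and 14.3 TPM in WT libraries. Col6a2, its neighbour on the same strand (NM_146007, chromosome 10, 76595756 to 76623404), was at 9.84, 9.65 and 10.7 TPM in TG libraries and 14.5, 14.1 and 16.4 TPM in WT libraries. Both were about equal within a library, with a mean ratio of Col6a1 to Col6a2 of 0.897 in TG and 0.915 in WT libraries. Col6a3, the large alpha 3 chain (NM_001243009, chromosome 1, 90766860 to 90843971, minus strand), was lower per length, at 2.02, 2.28 and 2.09 TPM in TG libraries and 3.38, 3.46 and 3.50 TPM in WT libraries. The falls were of similar size: 1.52-fold for Col6a1 (log2 fold change -0.55 ± 0.058 SE, limma adjusted p = 0.000437), 1.49-fold for Col6a2 (-0.53 ± 0.073, limma adjusted p = 0.00178) and 1.62-fold for Col6a3 (-0.51 ± 0.095, limma adjusted p = 0.00753). None of the 3 genes overlapped between the groups.

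By summed level, the fibril-associated collagens, which sit on the surface of fibrils, were the least changed class, 1.20-fold lower in TG. Most of that sum was Col14a1. The median log2 fold change of the tested genes of this class was -0.39, and that of the other fibrillar genes was smaller, at -0.21. Col14a1, the most abundant fibril-associated gene, was at 13.9, 14.5 and 15.1 TPM in TG libraries and 15.8, 17.1 and 15.3 TPM in WT libraries (log2 fold change -0.14, limma adjusted p = 0.142). Its highest TG value came close to its lowest WT value. Col16a1 fell, at 1.20, 1.24 and 1.23 TPM in TG libraries and 2.14, 2.03 and 2.28 TPM in WT libraries (1.76-fold, log2 fold change -0.50 ± 0.111 SE, limma adjusted p = 0.0156), but the call was lost without WT replicate 3 (limma adjusted p = 0.0511). Col12a1 was at 1.14, 0.922 and 0.911 TPM in TG libraries and 1.81, 1.19 and 1.62 TPM in WT libraries (limma adjusted p = 0.134). Col20a1 was at 0.770, 0.941 and 0.526 TPM in TG libraries and 1.49, 1.54 and 1.08 TPM in WT libraries (limma adjusted p = 0.0877). Groups did not overlap for any of these 4 genes, and only Col16a1 passed the test. All TG values lay below all WT values for 22.3% of all tested genes. Col12a1 and Col20a1 passed the filter through WT alone and so had to be lower in TG.

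**Figure D2:**
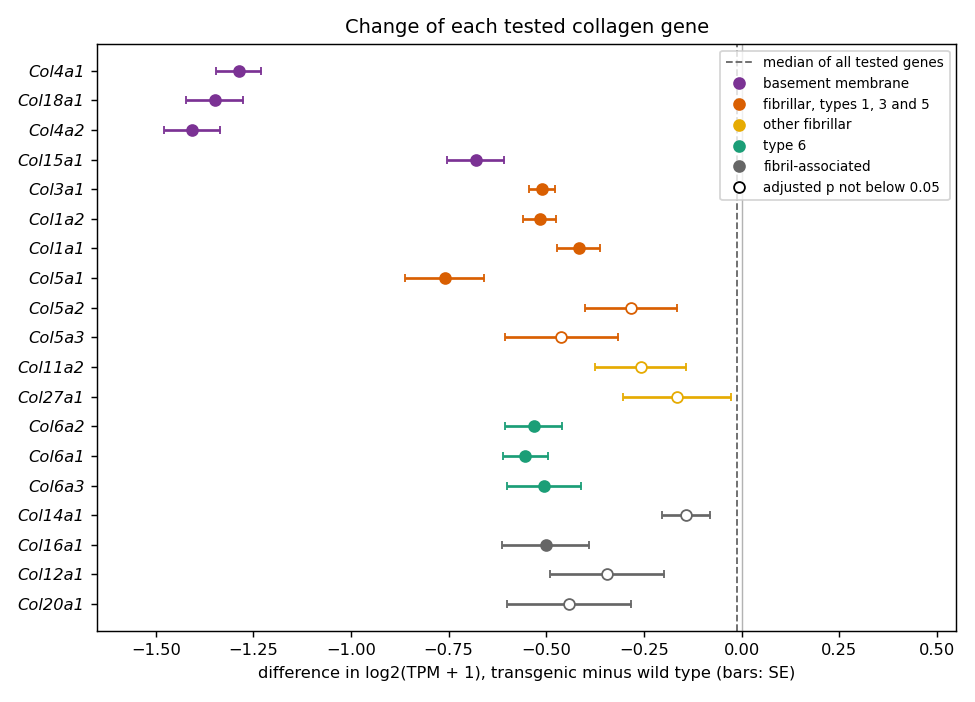
Difference in log2(TPM + 1) between TG and WT means for the 19 tested collagen genes, with bars of 1 SE from limma and open circles where the adjusted p was not below 0.05. Every point lies left of 0, from -1.41 for Col4a2 to -0.14 for Col14a1, and the dashed line marks the median of all tested genes at -0.01. Col5a3, Col12a1, Col20a1 and Col27a1 passed the filter through WT alone and so had to lie left of 0.

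The unequal fall of the classes was also read within each library, where depth and scaling cancel. The sum of the basement membrane genes over that of the fibrillar types 1, 3 and 5 was 0.262, 0.264 and 0.277 in TG libraries and 0.465, 0.459 and 0.465 in WT libraries. The groups were apart by far more than their spread. The same held for the most abundant gene of each class: Col4a1 over Col3a1 was 0.212, 0.216 and 0.203 in TG libraries and 0.409, 0.370 and 0.377 in WT libraries. Basement membrane over type 6 was 1.04, 1.04 and 1.02 in TG libraries and 1.71, 1.76 and 1.60 in WT libraries. Type 6 over fibrillar, by contrast, overlapped, at 0.252 to 0.271 in TG libraries and 0.261 to 0.290 in WT libraries.

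**Figure D3:**
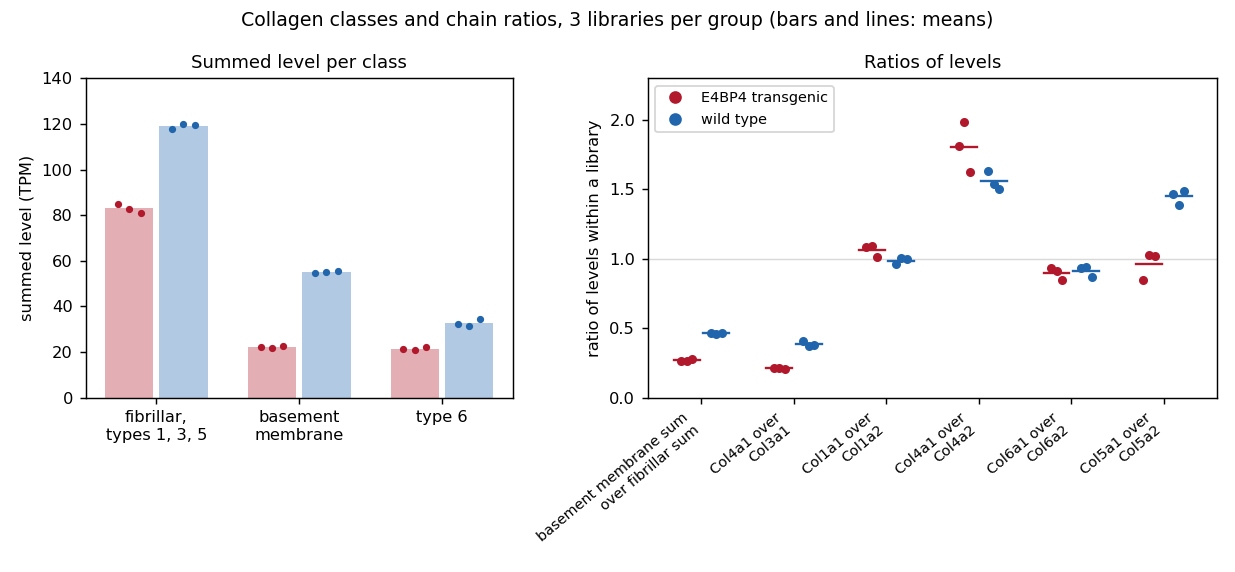
Left, summed TPM of 3 collagen classes in TG (red) and WT (blue) libraries, with bars at the means and 1 point per library. Right, ratios of levels within a library; the basement membrane to fibrillar ratio lies at 0.262 to 0.277 in TG and 0.459 to 0.465 in WT libraries, while Col6a1 over Col6a2 and Col4a1 over Col4a2 overlap.

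A fit to whole reads recovered from the TPM (limma-voom) called 18 of the 19 lower, where it called 16.4% of all tested genes lower, and left only Col27a1 uncalled. It thus added Col5a2 (adjusted p = 0.0107), Col5a3 (0.000609), Col11a2 (0.0375), Col12a1 (0.000482), Col14a1 (0.0288) and Col20a1 (0.00594). Of these, Col5a3, Col12a1 and Col20a1 passed the filter only through WT and so had to be lower in TG. The authors' deposited table, which counts over the gene span, lists 16 of the 19 as lower at an adjusted p below 0.05, where it lists 21.4% of the 12097 tested genes it holds as lower. In the authors' deposited table the log2 fold change was -1.40 for Col4a1, -1.57 for Col4a2 and -1.44 for Col18a1, against -0.58 for Col3a1 and -0.48 for Col1a1. The 3 genes that the authors' deposited table did not call were Col5a2, Col20a1 and Col27a1. Col5a3 and Col12a1, which passed the filter through WT alone, are among the 16. Among the collagens below the filter of 1 TPM, the authors' deposited table lists 5 of those 25 as higher and 1, Col13a1, as lower, against 9.59% higher and 11.3% lower of all 24421 genes with an adjusted p in it. The 5 were Col4a5 (log2 fold change 0.92, adjusted p = 0.00417 in the authors' deposited table), Col19a1 (1.26, 0.000238), Col22a1 (1.27, 0.00747), Col23a1 (0.79, 0.0164) and Col25a1 (1.35, 1.1e-05). By the reads recovered from the TPM, Col22a1 had 3 in TG and 5 in WT libraries, and Col25a1 had 5 in TG and 0 in WT libraries. These are too few to compare.

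The other 25 collagen genes were below the filter, and 2 of them, Col6a6 and Col10a1, had no read in any library. In 12 of the 25 at least 1 library held 10 or more reads, and their reads were summed per group and compared as a rate with an exact 95% interval that covers counting error only. The interval excluded 1 for 6 genes and included 1 for 6. It was not computed for other genes below the filter, so no background share stands beside these counts. They describe single genes and are not read as a result about collagens. Col13a1, a transmembrane collagen of cell adhesions (NM_007731, chromosome 10, 61838234 to 61979108, minus strand), had 0, 4 and 1 reads in TG libraries and 34, 17 and 26 reads in WT libraries. That is a rate ratio of 0.0634, with an interval of 0.0200 to 0.154, the lowest among these 12 genes, and without the filter its limma adjusted p was 0.0457. Col4a5, a type 4 chain of specialised basement membranes (NM_007736, chromosome X, 141475419 to 141689235, plus strand), had more reads in TG than in WT libraries, unlike Col4a1 and Col4a2. It had 63, 47 and 62 reads in TG libraries and 32, 20 and 36 reads in WT libraries, a rate ratio of 1.91 (1.47 to 2.50), and was not called without the filter (limma adjusted p = 0.0945). Its head-to-head neighbour Col4a6, whose start lies 1343 bases away, had 32 reads in TG and 28 in WT libraries, with an interval of 0.651 to 1.92.

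Among the minor type 6 genes, Col6a5 had 23, 15 and 10 reads in TG libraries and 32, 31 and 34 in WT libraries (rate ratio 0.483, 0.334 to 0.690), and Col6a4 had 24, 9 and 9 in TG libraries and 30, 25 and 18 in WT libraries (0.562, 0.375 to 0.832). Col24a1, a minor fibrillar gene, had 11 reads in TG and 29 in WT libraries (0.370, 0.167 to 0.764), and Col23a1, another transmembrane collagen, had 30 reads in TG and 48 in WT libraries (0.610, 0.373 to 0.983). For Col23a1 the direction differed with the counting: the authors' deposited table, over the gene span, lists it as higher (log2 fold change 0.79). These 4 intervals lay below 1, although reads overlapped between single libraries for Col6a4, Col24a1 and Col23a1. Col7a1, the anchoring fibril collagen of epithelium, had 87 reads in TG and 91 in WT libraries, and Col8a1, Col28a1, Col9a3 and Col19a1 likewise had intervals that included 1. The remaining 13 genes, Col2a1 and Col4a3 among them, had at most 16 recovered reads over both groups, too few to show a difference by these reads. Col22a1 and Col25a1 are also among them, and the authors' deposited table, over the gene span, lists both as higher.

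RefSeq promoter windows, from 250 bases before to 50 after the start, could be matched to 34 of the 44 collagen genes. The E4BP4 elements TTACGTAA and TTATGTAA, searched on both strands, were in 0 of the 34 windows and in 0.961% of all 17789 windows. A count of 0 among 34 windows allows a share of up to 8.82%. GGGCGG was in 21 of the 34 and 46.6% of all windows, CCAAT in 13 and 38.7%, and TATAAA in 5 and 13.0%. The median GC content was 60.0% in the collagen windows and 56.3% in all windows. These matches describe letters in a short window and are not binding sites.

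Genes that make and export collagen were followed by their roles. Of 14 tested genes of collagen modification and folding, 8 fell and 1 rose, with a median log2 fold change of -0.26. Fkbp10, called lower, and Plod2 passed the filter through WT alone and so had to be lower in TG. The call of Fkbp10 was lost without the filter (limma adjusted p = 0.0759). It did not hold in every run with 1 library left out (limma adjusted p up to 0.0617). Of the 12 that passed in both groups, 7 fell and 1 rose (median -0.19). P4ha1, a catalytic subunit of prolyl 4-hydroxylase, was at 40.9 ± 0.614 TPM in TG and 55.0 ± 1.55 TPM in WT libraries (SD, n = 3 each; limma adjusted p = 0.000157). Its partner subunit P4hb fell 1.26-fold (limma adjusted p = 0.000345). Serpinh1, the collagen-specific chaperone Hsp47, was at 11.8, 8.16 and 9.99 TPM in TG libraries and 20.9, 19.4 and 21.1 TPM in WT libraries. It was 2.05-fold lower (limma adjusted p = 0.000783). P3h2, a prolyl 3-hydroxylase that acts on type 4 collagen, was the 1 member that rose, at 7.85, 7.87 and 6.94 TPM in TG libraries and 3.97, 3.65 and 4.32 TPM in WT libraries (1.90-fold, limma adjusted p = 0.000687). Of 9 genes of procollagen secretion, 2 fell and 0 rose, against 13.2% of all tested genes that fell: Sar1b and Sec31a, parts of the COPII coat, were 1.20-fold and 1.14-fold lower (limma adjusted p = 0.00791 and 0.00971). Sec13 and Sec24d of the same coat were not called (limma adjusted p = 0.0694 and 0.0967), though limma-voom called Sec24d lower (adjusted p = 0.0224). At an unadjusted p 5 of the 9 were lower and 0 higher, against 20.5% lower among all tested genes, and limma-voom gave 3 lower and 0 higher, against 16.4% lower.

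Of 8 tested genes of procollagen processing and cross-linking, 3 fell and 1 rose. Tgm2, a transglutaminase that cross-links matrix proteins and is also abundant in macrophages, was at 144, 147 and 147 TPM in TG libraries and 238, 239 and 243 TPM in WT libraries. Its fall was 1.65-fold (log2 fold change -0.72, limma adjusted p = 6.7e-07). The lysyl oxidases, which cross-link collagen through lysine, did not move one way: Loxl2 and Lox were 1.88-fold and 2.02-fold lower (limma adjusted p = 0.0118 and 0.0388), and Loxl3 was 1.21-fold higher (0.0417). Lox, at 0.70 TPM in TG and 1.41 TPM in WT libraries, passed the filter through WT alone, so its direction was set by the filter. Without it and Adamts2, which entered in the same way, 2 of 6 fell and 1 rose. The call of Lox was lost without each library in turn except WT replicate 3, with limma adjusted p up to 0.112. That of Loxl3 was lost without TG replicate 1, TG replicate 2, WT replicate 1 and WT replicate 2, with limma adjusted p up to 0.13.

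Non-collagen proteins of the matrix were set beside the collagens. Of 13 tested basement membrane partners, 8 fell and 1 rose, with a median log2 fold change of -0.52. Pxdn, called lower, and Lama2 passed the filter through WT alone and Smoc2 through TG alone, which set their directions. The call of Pxdn did not hold in every run with 1 library left out (limma adjusted p up to 0.0597). Of the 10 that passed in both groups, 7 fell and 0 rose (median -0.54). Sparc, a collagen-binding glycoprotein, was at 33.0, 30.8 and 29.8 TPM in TG libraries and 49.4, 52.4 and 52.7 TPM in WT libraries, 1.65-fold lower (limma adjusted p = 5.7e-05). The laminin chains Lamc1 and Lamb1 were 1.56-fold and 1.62-fold lower (limma adjusted p = 0.00114 and 0.00237), and Hspg2, which encodes perlecan, 1.97-fold lower (0.00171). The gene that rose was Smoc2, named after its values were seen, at 1.72 ± 0.388 TPM in TG and 0.722 ± 0.403 TPM in WT libraries (SD, n = 3 each; limma adjusted p = 0.0465). Its call was lost without each library in turn except WT replicate 1 (limma adjusted p up to 0.145), with a pseudocount of 0.1 (0.0529), without the filter (0.171) and with the replicate number as a block (0.0614).

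Of 17 tested fibril partners, 11 fell and 0 rose, with a median log2 fold change of -0.43. At an unadjusted p, and by limma-voom, 12 were lower and 1 higher. Postn, the matricellular protein periostin, was at 10.6 ± 0.351 TPM in TG and 18.2 ± 0.391 TPM in WT libraries (SD, n = 3 each; limma adjusted p = 7.2e-05). The proteoglycan Vcan was 2.37-fold lower (limma adjusted p = 0.000148), and the small proteoglycans Dcn and Bgn, which bind fibrils, were 1.42-fold and 1.35-fold lower (0.00108 and 0.00132). Fn1, which encodes fibronectin and which macrophages themselves express, was singled out after its values were seen. It was at 154, 159 and 155 TPM in TG libraries and 148, 148 and 146 TPM in WT libraries (limma adjusted p = 0.0567).

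Of 7 tested collagen receptors, 2 fell and 0 rose, against 13.2% of all tested genes that fell (4 lower and 1 higher at an unadjusted p, and the same by limma-voom). Ddr2 and Mrc2 passed the filter through WT alone and so had to be lower in TG, and of the other 5 only Itgb1 fell. The receptors' summed level was 606 to 617 TPM in TG and 614 to 622 TPM in WT libraries. Itgb1, the integrin beta 1 chain, was 1.09-fold lower (limma adjusted p = 0.0332), but not under upper-quartile or median-ratio scaling (0.0975 and 0.0564), nor without TG replicate 1, TG replicate 2, WT replicate 1 or WT replicate 3 (up to 0.1). Ddr2, a receptor tyrosine kinase for fibrillar collagen, was at 0.863 TPM in TG and 1.56 TPM in WT libraries (limma adjusted p = 0.0375), and its call was lost without any 1 of the 6 libraries (0.057 to 0.105). Its relative Ddr1 was not called (limma adjusted p = 0.0534), though limma-voom called it lower (adjusted p = 0.0305). Lair1, an inhibitory receptor of leukocytes that binds collagen, was at 80.3, 85.2 and 82.7 TPM in TG libraries and 78.0, 78.2 and 72.4 TPM in WT libraries. It was not called (limma adjusted p = 0.0725), but was called higher under upper-quartile and median-ratio scaling (0.0279 and 0.0447). Lair1 was also called higher by limma-voom (adjusted p = 0.00172), but not in the authors' deposited table (adjusted p = 0.118 there).

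Of 10 tested collagen-degrading enzymes, 5 fell and 1 rose, and the sum was 4042 to 4137 TPM in TG and 4033 to 4079 TPM in WT libraries. Most of that sum was Ctss and Ctsb, so it says little of the other members. Ctsb, picked out after its values were seen, was at 1427 TPM in TG and 1423 TPM in WT libraries, with overlapping groups. Mmp9, a gelatinase, was at 81.3, 82.2 and 83.6 TPM in TG libraries and 186, 181 and 176 TPM in WT libraries, 2.20-fold lower (limma adjusted p = 3.2e-07). The collagenases Mmp8 and Mmp13 were 3.61-fold and 1.36-fold lower (limma adjusted p = 3.2e-05 and 9.7e-05). Mmp14, a membrane-bound collagenase, was 1.32-fold lower (limma adjusted p = 2.8e-05). The gene that rose was the lysosomal protease Ctss, named after its values were seen, at 2122 ± 50.6 TPM in TG and 1864 ± 20.8 TPM in WT libraries (SD, n = 3 each; limma adjusted p = 0.000326).

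**Figure D4:**
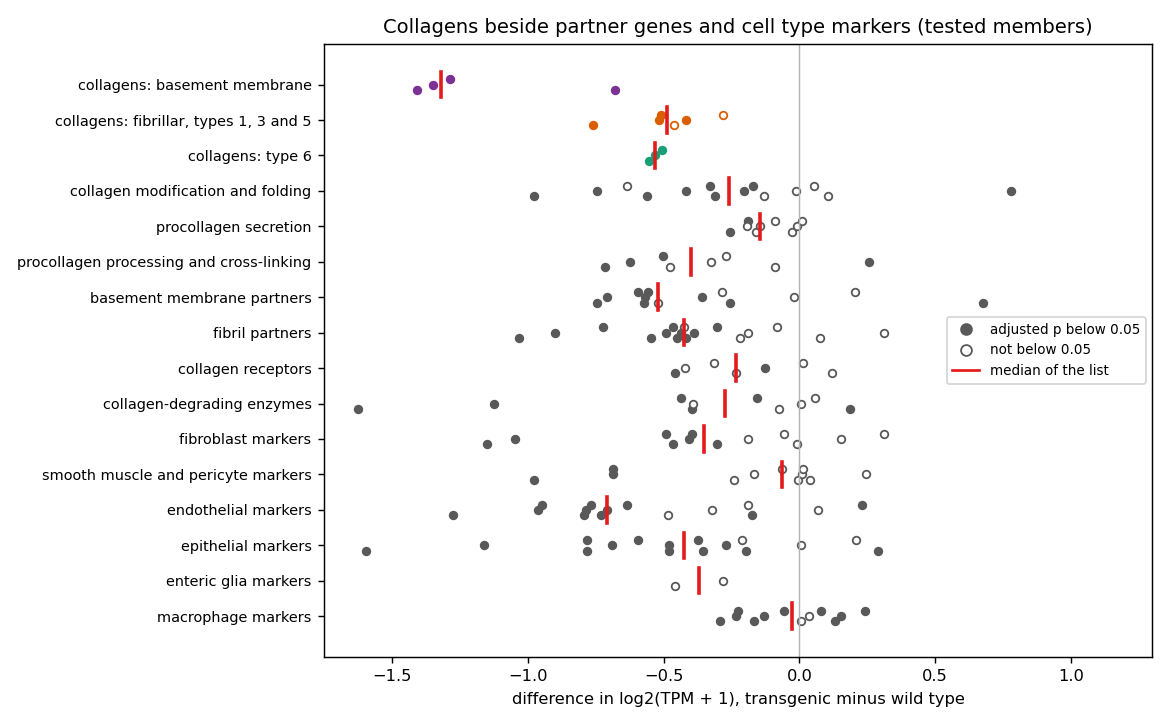
Difference in log2(TPM + 1) between TG and WT means for the tested genes of 3 collagen classes, of 7 lists of partner genes and of 6 lists of cell type markers; filled points passed an adjusted p below 0.05 and the red line is the median of the list. The median lies at -1.32 for basement membrane collagens, -0.35 for fibroblast markers and -0.03 for macrophage markers; 9 of the 15 endothelial points passed the filter through WT alone and so had to lie left of 0.

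Markers of cells other than macrophages were present, and many but not all of them were lower in TG. Of 15 tested endothelial markers, 10 fell and 1 rose, and the summed level of the list was 63.3 to 70.1 TPM in TG and 86.0 to 91.8 TPM in WT libraries. Most of that sum was Eng and Pecam1 in both groups. Of the 15, 9 passed the filter through WT alone and so had to be lower in TG, and 6 of the 10 that fell are among these. Of the 6 that passed in both groups, 4 fell and 1 rose (median log2 fold change -0.47). Plvap, a protein of vessel fenestrae, was at 6.64, 5.39 and 4.95 TPM in TG libraries and 14.1, 15.7 and 15.3 TPM in WT libraries, 2.66-fold lower (limma adjusted p = 0.000104). The junction gene Cdh5 was 2.54-fold lower (limma adjusted p = 0.00172). Esam and the receptor Kdr were at 0.917 and 0.592 TPM in TG and 2.69 and 1.74 TPM in WT libraries (limma adjusted p = 0.00398 and 0.00753), and both passed the filter through WT alone. Pecam1 and Vwf, widely used endothelial markers picked out after their values were seen, moved less: Pecam1 was at 24.6 TPM in TG and 27.9 TPM in WT libraries (limma adjusted p = 0.0324), and Vwf at 1.3 TPM in TG and 1.19 TPM in WT libraries, with overlapping groups (0.765). The call of Pecam1 was lost without each library in turn except WT replicate 3 (limma adjusted p up to 0.105) and under upper-quartile scaling (0.0741). The marker that rose was Eng, named after its values were seen, at 25.4 TPM in TG and 21.5 TPM in WT libraries (limma adjusted p = 0.00815).

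Of 12 tested fibroblast markers, 7 fell and 0 rose (median log2 fold change -0.35), with sums of 273 to 275 TPM in TG and 325 to 333 TPM in WT libraries. Most of that sum was Gsn and C3 in both groups, with Gsn at 137 TPM in TG and 143 TPM in WT libraries. At an unadjusted p 8 markers were lower and 0 higher, and by limma-voom 7 and 0. Pdpn, a surface protein of stromal cells and of some macrophages, was at 5.57, 5.46 and 5.55 TPM in TG libraries and 15.4, 13.1 and 12.2 TPM in WT libraries (limma adjusted p = 9.7e-05). Cd34 was 2.69-fold lower (limma adjusted p = 0.00156) and the complement gene C3 1.32-fold lower (7.7e-05). By contrast Pdgfra and Thy1, picked out after their values were seen, overlapped between the groups: Pdgfra was at 1.86 TPM in TG and 1.59 TPM in WT libraries, and Thy1 at 9.43 TPM in TG and 9.54 TPM in WT libraries. The list shares Dcn, Dpt, Fbln1, Lum and Mfap5 with the fibril partners. Of 11 tested smooth muscle and pericyte markers, 3 fell and 0 rose, against 13.2% of all tested genes that fell, with sums of 48.7 to 49.8 TPM in TG and 53.7 to 61.1 TPM in WT libraries; an unadjusted p and limma-voom gave the same counts. Those that fell were the mural genes Mcam, Pdgfrb and Rgs5, 2.65-fold, 2.31-fold and 1.80-fold lower (limma adjusted p = 0.00071, 0.00496 and 0.00709). Pdgfrb passed the filter through WT alone, and of the 10 that passed in both groups 2 fell (median log2 fold change -0.03). Myh11, the heavy chain of smooth muscle myosin, was not called (limma adjusted p = 0.186).

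Of 16 tested epithelial markers, 12 fell and 1 rose, with sums of 708 to 710 TPM in TG and 1191 to 1193 TPM in WT libraries. Car1, a carbonic anhydrase of colonocytes, was at 160, 170 and 161 TPM in TG libraries and 496, 496 and 499 TPM in WT libraries (limma adjusted p = 3e-08). Krt20, Fabp2 and Krt8 were 2.34-fold, 1.81-fold and 1.40-fold lower (limma adjusted p = 2.5e-05, 0.000102 and 6.1e-05). The goblet cell gene Tff3, named after its values were seen, was 1.23-fold higher (limma adjusted p = 0.0102, but not called without the filter, 0.0836). Enteric glia had 2 tested markers, Gfap and Erbb3, neither called (limma adjusted p = 0.0677 and 0.0768), and both were lower at an unadjusted p and by limma-voom. Gfap passed the filter through WT alone. The glia marker sum was 4.36 to 4.52 TPM in TG and 6.96 to 8.02 TPM in WT libraries. No marker of any of these lists was at 0 in all libraries. The part of these cell types in the collagen result was not tested.

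Of the 12 macrophage markers, 4 rose and 6 fell, each by at most 1.23-fold. Adgre1, which encodes F4/80, was at 426 ± 2.82 TPM in TG and 361 ± 1.63 TPM in WT libraries (SD, n = 3 each; limma adjusted p = 4.7e-05), while Lyz2, Cd14 and Itgam were 1.12-fold, 1.23-fold and 1.17-fold lower (limma adjusted p = 1.6e-05, 6e-05 and 0.000237). The macrophage marker sum was 1.04-fold lower in TG, against 1.57-fold for the sum of all collagens.

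The annotation sets limits on single rows. The library kit is not described as keeping strand, and reads in exons that overlap on opposite strands could then not be told apart. Such overlap covers 22 bases of Col4a1, 65 of Col4a2, 14 of Col15a1 and 212 of Col5a1, out of transcripts of 6561, 6400, 5277 and 8334 bases. Among the genes below the filter, opposite-strand overlap reaches 563 bases of Col4a3, 289 of Col6a4 and 230 of Col9a3, out of 8555, 7399 and 2812 bases. On the same strand, another annotated gene shares 141 bases of Col3a1, 79 of Col20a1 and 36 of Col7a1.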

How the data were processed

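RNA from sorted colonic macrophages was sequenced in 6 libraries (3 TG, 3 WT). Per the submitters' processing notes, bcl2fastq, STAR, HOMER 4.11.1 and DESeq2 were used with genome build mm10; no source used here gives their settings. TPM for 25124 genes were deposited, per the file headers, each row 1 RefSeq transcript with its exon length; the columns sum to 543612 to 545319 TPM. The authors' own comparison, deposited for 24421 rows and counted over the gene span, holds log2 expression per library and, per gene, a log2 fold change with raw and adjusted p-values. Its fold change is TG minus WT: 5099 of its 5099 genes with an adjusted p below 0.05 have the sign of that difference in its log2 values.

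The collagen genes and all lists were chosen with earlier results of these data known. Values of log2(TPM + 1) were fitted with limma-trend (R 4.3.3, limma 3.58.1) on genotype alone, for 12633 genes that averaged 1 TPM or more in either group, and calls were made at p below 0.05 after Benjamini-Hochberg adjustment. Fold changes on this scale understate those of low genes; folds in the text are ratios of mean TPM. The test was also run on simulated reads that varied by counting error only, and its outcome is not reported or relied on here. TPM times exon length gave whole multiples of 1 step per library for 100% of 13473 to 14238 values of up to 1000 reads (tolerance 0.1 reads), which recovered reads for depth and for limma-voom. Pairs of libraries differed over the tested collagens by a chi-square per gene of 1.34 to 3.67 within groups and 93.2 to 102 across groups. Over all tested genes it was 2.04 to 2.72 within groups and 16.0 to 16.9 across groups. Named genes are every collagen with at least 1 TPM in a group, other collagens with at least 10 reads in a library, Nfil3 and up to 4 tested genes of each other list with the lowest p. Deviations of same-numbered libraries correlated at -0.043 to 0.032, so replicate numbers were not taken as pairs. Promoters came from RefSeq (GRCm38.p6) and overlaps from GENCODE.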

Additional observations from a re-analysis of the deposited data

How the results depend on the processing

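The log2 fold changes of the 19 tested collagens kept their sign under every alternative run. For Col5a3, Col12a1, Col20a1 and Col27a1, which passed only through WT, the filter of 1 TPM set that sign in the runs that used it. The 12 calls held wherever the gene was tested, except that of Col16a1 without WT replicate 3. The count of collagens lower was 11 to 12, and that of all genes 704 to 883 higher and 1231 to 1373 lower, when 1 library was left out in turn. With the replicate number as a block 12 collagens fell, and 922 genes were higher and 1457 lower. Among the other named genes the block ended calls that include those of Lox, Loxl3, Ddr2, Smoc2 and Pecam1. Without the filter on low values 721 genes were higher and 1065 lower. The calls lost in that run include those of Sar1b, Fkbp10, Loxl2, Loxl3, Itgb1, Rgs5, Lyz2, Smoc2, Tff3 and Pecam1. For all collagens the median log2 fold change was -0.60 with a pseudocount of 0.1, -0.13 without the filter, where all 44 enter, -0.55 with a filter of 5 TPM, -0.48 with upper-quartile scaling and -0.61 with limma-voom. For basement membrane collagens it was -1.45 with a pseudocount of 0.1, -0.34 without the filter, -1.28 with upper-quartile scaling and -1.45 with limma-voom. For type 6 it was -0.60, -0.34 without the filter and -0.60 with limma-voom. For other fibrillar genes it was -0.33 with that pseudocount, -0.091 without the filter and -0.35 with limma-voom, and for fibril-associated genes -0.67, -0.012 without the filter, -0.14 with a filter of 5 TPM and -0.71 with limma-voom. Under upper-quartile scaling the sums in TG over WT were 0.652 for all collagens, 0.715 for the fibrillar types 1, 3 and 5 and 0.413 for basement membrane. Without the filter the 19 tested genes kept their log2 fold changes, and the medians also took in the 25 genes below 1 TPM. For basement membrane collagens 4 such genes entered beside the 4 tested ones. The cause of the other shifts was not tested. Depth limits the 25 genes below 1 TPM, where 13 had at most 16 reads in all.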
